A study of Arabidopsis thaliana with 434 samples.

Results

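The anac019 line of Arabidopsis thaliana carries a T-DNA insertion in ANAC019 (AT1G52890) and was sampled as whole leaves of 14, 18, 22 and 26 d. It contributed 8 of the 434 leaf samples, 2 at each age, chosen by their title. All of them carry the letter A in the title, so they were set against the 10 wild-type samples of the Columbia ecotype with the same letter, of which 4 were taken at 14 d and 2 at each later age. All 34 wild-type samples, under letters A to D, served as a check. Columbia was the parent of every line, and no sample received a treatment according to the labels.

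The series counted transcripts of 49 NAC genes with the NanoString nCounter, which counts labelled probes bound to RNA without amplification, in wild type and 49 insertion lines. Total counts ran from 128460 to 509398 in the anac019 samples, from 187841 to 640466 in wild type of letter A and from 31613 to 687229 over the series. The 13 pairs of samples within a group and age all differed by more than sampling noise. The labels give neither the position of the insertion nor the meaning of the letter, and the line stands for a single insertion. Nothing in them states that samples of a group are separate plants. A p-value here thus reflects only how much samples within groups varied, and that variation may be technical. In the main edgeR fit this spread was estimated from all 434 samples, not from the anac019 and wild-type samples alone. The tissue label could not be checked, because the panel holds no marker of mesophyll or epidermis.

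NAC proteins are plant-specific transcription factors that share a DNA-binding domain at the N terminus. ANAC019 belongs with ANAC055 and ANAC072 (RD26) to a stress-related branch of the family, the SNAC-A group, whose members respond to drought, salt, abscisic acid and jasmonate. ANAC019, ANAC055 and ANAC072 have been studied together as overlapping regulators of stress responses and of chlorophyll loss during leaf ageing. Many NAC genes are transcribed more strongly as a leaf ages, and some of their products promote senescence while others delay it.

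The first question was whether the line lacked the transcript it is named after. ANAC019 fell at every age in anac019. Levels are given as normalised counts: raw counts over the mean of the sample's 4 references (UBQ10, TUB2, ACT2 and ACT7), rescaled by the average of that mean over the series.

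At 14 d ANAC019 had 12.0 and 4.10 normalised counts in anac019, against 165, 149, 74.5 and 102 in wild type of letter A. At 18 d it had 8.88 and 7.63 in anac019, against 191 and 186 in wild type. At 22 d it had 14.6 and 5.82 in anac019, against 561 and 2254 in wild type. These anac019 samples lay far below wild type, and the groups did not overlap at any age. At 26 d ANAC019 had 8.65 and 186 normalised counts in anac019, against 891 and 1453 in wild type of letter A. The second 26 d sample of anac019 therefore held more ANAC019 than any other sample of the line and still less than any wild-type sample of its age, the lowest of which had 770 among all letters.

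**Figure D1:**
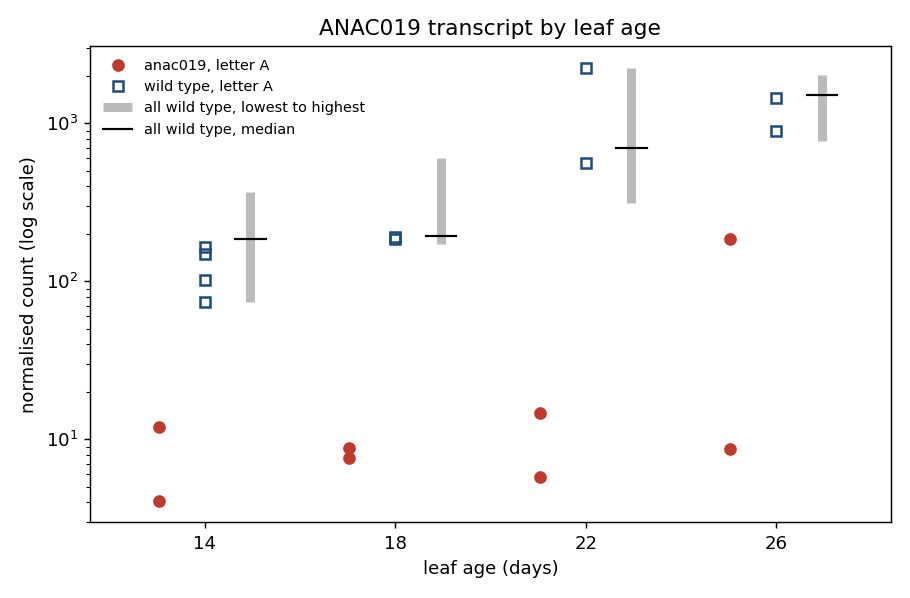
Normalised ANAC019 counts on a log scale by leaf age in days. Filled circles are anac019 samples, open squares wild type of letter A, and grey bars with a black line the range and median of all wild type. Every anac019 sample lies below every wild-type sample of its age, and 1 of the 2 samples at 26 d stands at 186.

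In 5 of the 8 anac019 samples the raw ANAC019 count was no higher than the highest negative control probe of the same sample, so there it was not told from background. The 3 samples above that level had raw counts of 28 at 14 d, 14 at 22 d and 146 at 26 d. Background was not subtracted from these counts, so their share of the wild-type level of letter A is, if anything, too high. The share is that of both samples of an age together, and it covers only the stretch of transcript that the probe binds. At 26 d the higher sample alone had 186 normalised counts against a wild-type mean of 1172, so its own share was above the joint one. The counts came to 6.66% of wild type at 14 d, 0.714% at 22 d and 8.77% at 26 d, with upper 95% Poisson limits of 9.17%, 1.10% and 10.3%. At 18 d both anac019 samples were at background, and the upper limit was 8.35%. These limits cover counting error only. None of the other libraries of the series, 108 at 14 d and 106 at each later age, had less ANAC019 than either anac019 sample of its age; the lowest of them had 49.4, 132, 225 and 606 normalised counts at the 4 successive ages.

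The log2 difference from wild type of letter A, averaged over the ages, was -4.77 (SE 0.42), with an adjusted p of 2.07e-22 (edgeR, quasi-likelihood test, Benjamini-Hochberg). Age by age it was -3.90, -4.49, -7.10 and -3.58 at 14, 18, 22 and 26 d, with adjusted p-values of 5.31e-05, 0.00014, 6.09e-11 and 0.000145 over 188 tests. Between 14 and 26 d this difference changed by 0.32, which did not pass the test of change with age; on leaving out single anac019 samples it ran from -3.16, without the 26 d sample at 186 counts, to 1.28, without the 14 d sample at 12.0, and was not called. Without the 26 d sample at 186 counts the averaged difference was -5.64 and that at 26 d was -7.06; without the other 26 d sample the difference at 26 d was -2.66, with an adjusted p of 0.162 by edgeR. In a fit of anac019 and letter A wild type alone, ANAC019 passed over the ages and at 22 d, while 14, 18 and 26 d had an adjusted p of 0.138 by edgeR. Limma gave -6.70 for the average on the authors' background-subtracted log2 values and -4.93 on log2 normalised counts plus 1 without subtraction, a fit added after the data had been seen.

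The next question was whether any other NAC transcript differed in anac019 over the ages as a whole. None was called: 0 of the other 46 genes tested passed an adjusted p of 0.05 by edgeR, and 0 had an unadjusted p below 0.05. The share of the 47 tested genes called lower was 2.13%, which is ANAC019 itself, and the share called higher was 0%. DESeq2 on the letter A samples and limma on the authors' values also called 0 of the 46.

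Averaged differences of the 46 genes ran from -0.28 (ANAC055) to 0.49 (ANAC010), with a median of -0.03 and a median size of 0.08 on the log2 scale. The smallest adjusted p was 0.978. The standard errors ran from 0.08 to 0.47, and the 95% interval of the difference stayed within a 2-fold change either way for 44 of the 46 genes. The exceptions were ANAC010 and AT3G12910, whose intervals reached 1.12 and -1.11. ANAC010 was at background, meaning no higher than the sample's highest negative probe, in every wild-type sample of letter A at 18, 22 and 26 d. For 24 genes the interval stayed within 0.5 on the log2 scale. The most precisely measured genes, such as NTL9 at -0.04 (95% interval -0.18 to 0.11) and ANAC018 at -0.07 (-0.21 to 0.08), therefore left room for small differences only. In bulk leaves, fewer cells of a type and less RNA per cell cannot be told apart.

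**Figure D2:**
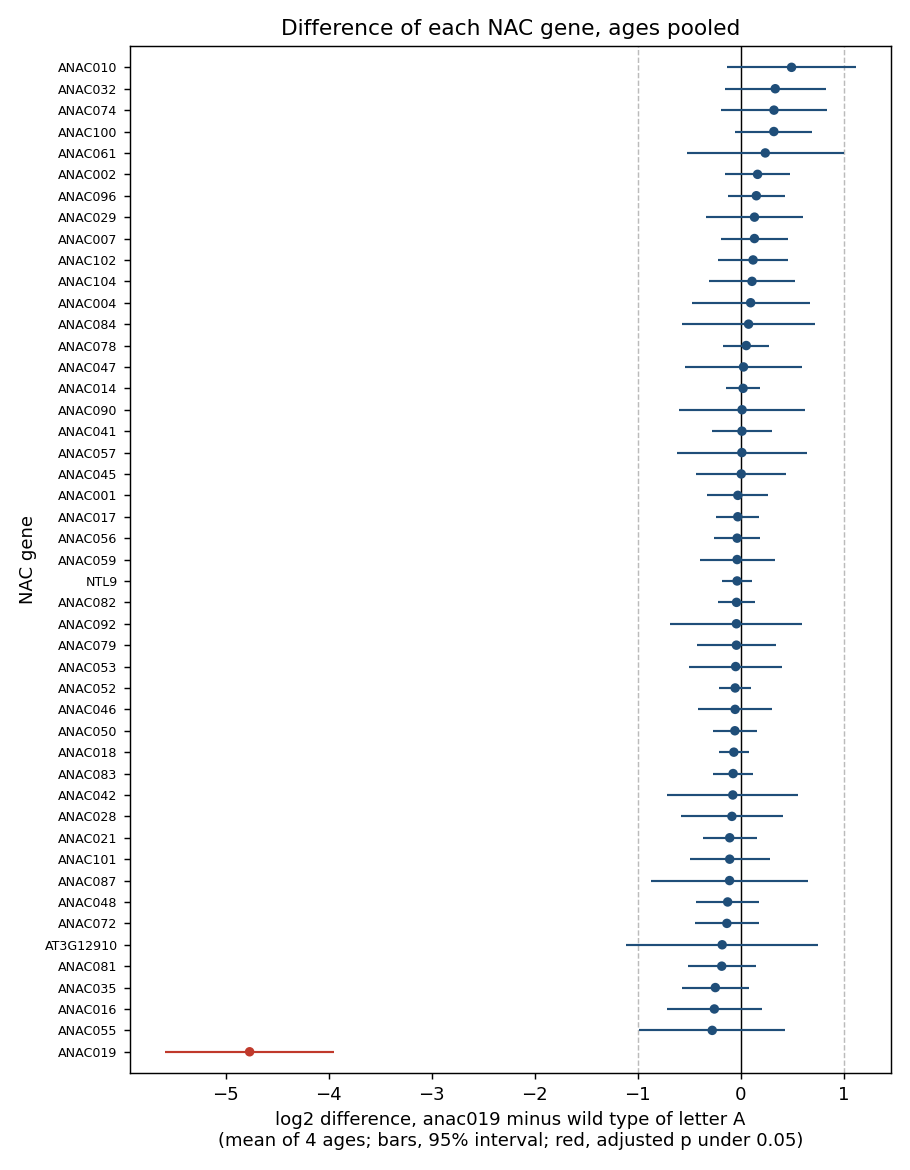
Log2 difference of each of the 47 tested NAC genes, anac019 minus wild type of letter A, averaged over the 4 ages, with 95% intervals. ANAC019, in red, lies at -4.77; the other 46 genes lie between -0.28 and 0.49 and every one of their intervals spans 0.

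The other SNAC-A genes were described first, since they are the closest relatives of the lost transcript. None of the 6 passed the test in either direction over the ages or at any age, and their median averaged difference was -0.01, beside -0.03 over all 46 genes. ANAC055, which acts in jasmonate and abscisic acid responses, had 17.9 and 42.8 normalised counts at 14 d in anac019, against 43.8, 95.9, 26.8 and 23.7 in wild type of letter A. At 18 d it had 108 and 103 in anac019, against 220.2 and 272 in wild type. At 22 d ANAC055 had 291 and 284 in anac019, against 237 and 567.9 in wild type.

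At 26 d ANAC055 had 1149 and 360.3 normalised counts in anac019, against 227 and 415 in wild type of letter A. The groups overlapped at every age but 18 d. The higher 26 d sample was the one with 8.65 ANAC019 counts, and it exceeded the highest of all wild-type samples, at 629. The differences of -0.64, -1.22, -0.48 and 1.23 at the successive ages had 95% intervals that included 0, such as -0.22 to 2.68 at 26 d. The averaged difference of ANAC055 was -0.28 (SE 0.36) against letter A and 0.01 against all wild type.

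ANAC072 (RD26), a regulator of abscisic acid responses, had 855 and 1063 normalised counts at 14 d in anac019, against 1103, 1270.4, 1213 and 843 in wild type of letter A. At 26 d it had 3779.6 and 2368 in anac019, against 2537 and 3693 in wild type. The groups overlapped at all 4 ages. ANAC072 averaged -0.13 (95% interval -0.45 to 0.18). ANAC002 (ATAF1), which acts in drought and abscisic acid responses, averaged 0.16, ANAC032 0.34, ANAC081 (ATAF2) -0.18 and ANAC102 0.12. Of these, ANAC002 and ANAC032 were above both letter A wild-type samples at 18 d, at 539.9 and 755 for ANAC002 in anac019 against 399 and 451 in wild type.

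The ANAC092 clade holds ANAC092 (ORE1), a central promoter of leaf senescence, with its relatives ANAC059 (ORS1), ANAC079 and ANAC100. None of its 4 members passed the test over the ages, with a median of -0.04. ANAC092 itself averaged -0.04 (95% interval -0.68 to 0.60), and its 26 d values were 1774 and 1609 in anac019, against 1156 and 2134 in wild type of letter A. ANAC059 averaged -0.03 and ANAC079 -0.04.

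ANAC100 came closest to the threshold. It had 58.1 and 49.2 normalised counts at 14 d in anac019, against 44.9, 39.9, 59.0 and 54.5 in wild type of letter A. At 22 d it had 123 and 125 in anac019, against 87.1 and 131 in wild type. At 26 d ANAC100 had 136 and 237 in anac019, against 101 and 76.6 in wild type. The 26 d groups did not overlap, while those at 14, 18 and 22 d did. The higher 26 d sample was the one with 186 ANAC019 counts.

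The ANAC100 difference at 26 d was 1.07 (SE 0.38, 95% interval 0.31 to 1.82), with an unadjusted p of 0.00602 and an adjusted p of 0.226 by edgeR over 188 tests. Without the higher 26 d sample it was 0.61, with an adjusted p of 0.99. The averaged difference was 0.32 (SE 0.19) and was not called against letter A. Against all wild type the averaged difference was 0.53 (SE 0.15) with an adjusted p of 0.0138 by edgeR, so this check called ANAC100 higher. All wild type includes letters B to D, which no anac019 sample carries, so line and letter cannot be told apart in that check. At 26 d alone, the comparison with all wild type gave 0.85 and an adjusted p of 0.133 by edgeR. Also at 26 d, DESeq2 on the letter A samples called ANAC100, at 1.003 with an adjusted p of 0.0166, while edgeR on the same samples gave 1.07 with an adjusted p of 0.0636. In edgeR with all samples, a block on the replicate number did not call it, at an adjusted p of 0.0726. With the anac019 numbers exchanged at 18 and 26 d, added after the data had been seen, the adjusted p was 0.0469 by edgeR. Those ages were the ones at which same-numbered deviations correlated negatively. The pairing was thus picked from these data, and no conclusion is drawn from that p-value.

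Among 12 genes whose products promote senescence, which include several SNAC-A and ANAC092 clade members, 0 passed the test over the ages and the median difference was -0.05. ANAC029 (NAP), an activator of chlorophyll degradation and abscisic acid production, averaged 0.13. ANAC016 averaged -0.26, ANAC046 -0.05, ANAC053 -0.05 and NTL9 -0.04. ANAC087, which acts in senescence and programmed cell death, had 1767 and 1575 normalised counts at 26 d in anac019, against 913 and 739 in wild type of letter A. Both anac019 samples lay above all 8 wild-type samples of that age, the highest of which had 1100.0. The difference at 26 d was 1.02 with a 95% interval of -0.51 to 2.54, and it did not pass the test.

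ANAC042 (JUB1) and ANAC083 (VNI2) delay senescence. At 14 d ANAC042 had 161 and 63.3 normalised counts in anac019, against 168, 163, 142 and 323 in wild type of letter A. At 26 d it had 1005 and 1146 in anac019, against 684 and 453 in wild type. The groups overlapped at 14 d, while at 26 d both anac019 samples lay above all wild-type samples, which reached 983. The averaged difference was -0.08. ANAC083 averaged -0.07 (95% interval -0.27 to 0.12). Neither gene passed the test over the ages or at any age.

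**Figure D3:**
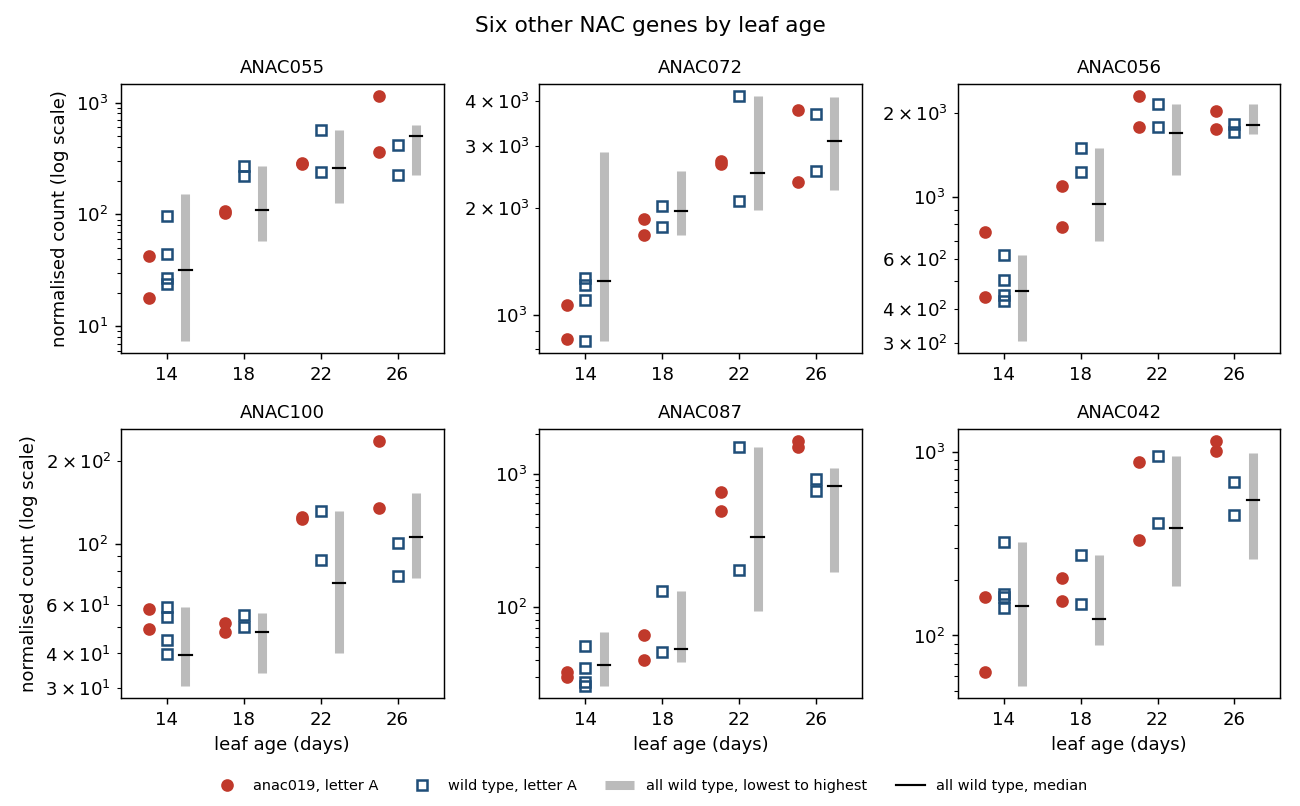
Normalised counts on log scales by leaf age in days for ANAC055, ANAC072, ANAC056, ANAC100, ANAC087 and ANAC042. Filled circles are anac019 samples, open squares wild type of letter A, and grey bars with a black line the range and median of all wild type. At 26 d the anac019 samples of ANAC087 and ANAC042 lie above every wild-type sample, and those of ANAC072 overlap wild type.

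The remaining groups gave no call over the ages either. The 6 membrane-tethered NACs, which are released from membranes by cleavage, had a median difference of -0.03. ANAC017, ANAC082 and ANAC090, the trio that the study proposed as restraining early senescence, averaged -0.03, -0.04 and 0.01. ANAC018 (NARS2) and ANAC056 (NARS1), known for their part in seed development, averaged -0.07 and -0.03. ANAC018 (AT1G52880) is the direct neighbour of ANAC019 in the RefSeq gene table, with 0 genes between them. Its 95% interval was -0.21 to 0.08.

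Vascular markers were measured because a whole leaf also holds vessels. None of the 4 tested xylem NACs and the 1 tested phloem NAC was called over the ages, and none of the markers was at 0 in any of these samples. Summed xylem markers ranged from 315 to 391 normalised counts at 18 d in anac019, against 223 to 259 in wild type of letter A. At 26 d they ranged from 546 to 1082 in anac019, against 565 to 673 in wild type. The xylem sum at 18 d thus did not overlap between the genotypes, and its part in the other differences at that age was not tested. Most of the sum was ANAC104, with means of 234 in anac019 and 163 in wild type of letter A at 18 d. At 26 d its means were 750 in anac019 and 554 in wild type. All 4 tested xylem NACs were higher in anac019 at 18 d, by 0.50 to 1.05 on the log2 scale. The 1.05 is that of ANAC010, which was at background in both wild-type samples and in 1 of the 2 anac019 samples, so it has no firm size. At 26 d ANAC104 differed by 0.44 and ANAC101 by -0.87, and none of these differences passed the test. Whether the sum tracks the amount of vessels was not tested. The phloem markers, ANAC045 and ANAC086, were both at background in both anac019 samples at 22 d, so their sum gave no comparison there.

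Age by age, 0 of the 46 other genes passed the test; ANAC019 alone made up the 2.13% called at each age. Before adjustment, 2 genes had p below 0.05 at 18 d and 2 at 26 d, and none at 14 or 22 d. At 18 d these were ANAC056 and ANAC048. ANAC056 had 781 and 1097 normalised counts at 18 d in anac019, against 1231 and 1499 in wild type of letter A, a difference of -0.54 (unadjusted p = 0.0238 by edgeR, adjusted p = 0.699). ANAC048 had 211 and 233 in anac019, against 322 and 415 in wild type, a difference of -0.73 (unadjusted p = 0.026 by edgeR, adjusted p = 0.699). Both genes lay within the range of all wild type at 18 d, which was 695 to 1499 for ANAC056 and 140.0 to 415 for ANAC048.

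At 26 d the genes were ANAC100, given above, and ANAC101 (VND6), a switch for xylem vessel formation. ANAC101 had 10.1 and 8.91 normalised counts in anac019, against 13.4 and 21.6 in wild type of letter A, and lay below all wild-type samples, the lowest at 10.4. The difference was -0.87 (unadjusted p = 0.0465 by edgeR, adjusted p = 0.969), and both anac019 samples were at background, so its size has only a bound.

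The number of genes in which both anac019 samples lay beyond every letter A wild-type sample differed between ages. At 14 d it was 2 above and 2 below, where 4 wild-type samples had to be passed, and at 18 d, with 2 wild-type samples, it was 12 above and 8 below. At 22 d it was 1 above and 6 below, and at 26 d it was 13 above and 4 below. The shares over all 47 genes tested, ANAC019 included, were 4.26% above and 6.38% below at 14 d and 25.5% above and 19.1% below at 18 d. They were 2.13% above and 14.9% below at 22 d, and 27.7% above and 10.6% below at 26 d. With so few samples, random order alone also puts some genes beyond wild type, of letter A or of all letters. That share was not computed, so no gene is read as changed from these counts. Against all wild type few remained: ANAC004 and ANAC047 above at 18 d, ANAC087 and ANAC042 above and ANAC101 below at 26 d, and none at 14 or 22 d. In a few of these genes every sample of a genotype was at background: 2 of the 12 above at 18 d (ANAC010 and ANAC057), 1 of the 6 below at 22 d (ANAC045), and at 26 d 1 of the 13 above (ANAC010) and 1 of the 4 below (ANAC101). Their differences are bounded by background and have no firm size.

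Of the genes beyond letter A wild type at 18 d but not past the test, the largest differences upward were ANAC032 (0.79), ANAC004 (0.78) and ANAC002 (0.61), leaving aside ANAC010 and ANAC057, which were at background. Downward they were ANAC055 (-1.22), ANAC048 (-0.73), ANAC016 (-0.61), ANAC046 (-0.59) and ANAC056 (-0.54). At 26 d the upward ones were ANAC061 (1.32), AT3G12910 (1.19), ANAC100 (1.07) and ANAC087 (1.02), and the downward ones ANAC035 (-0.42), ANAC018 (-0.17) and ANAC052 (-0.08). At 14 d ANAC079 (0.26) and ANAC083 (0.14) were higher and ANAC047 (-0.56) and ANAC081 (-0.44) lower. At 22 d ANAC096 (0.37) was higher, and ANAC035 (-0.59), ANAC081 (-0.42), ANAC102 (-0.21) and NTL9 (-0.18) were among those lower. The median of all 46 genes at 22 d was -0.16, and it became -0.05 with the geometric mean of the references and -0.03 without UBQ10. TMM gave -0.01, but it sets the scale from the counted genes and so draws their median towards 0 by construction. The size of the downward lean at 22 d thus depended on the references used. At 26 d the median was 0.12, and it became 0.29 with the geometric mean of the references, 0.31 without UBQ10 and 0.07 with TMM.

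Only ANAC074, at 0.29, 0.40, 0.48 and 0.12, was higher in the mean at all 4 ages. Its groups overlapped at every age, and at 18 d 1 sample of each genotype was at background. Lower in the mean at all 4 ages were 2 genes, ANAC082 and ANAC072, the latter at -0.21, -0.10, -0.21 and -0.02. The groups of both also overlapped at every age. The median difference over the 46 genes was -0.05 at both 14 and 18 d, and the median standard error of a gene was 0.32 at 14 d and 0.38 to 0.40 later. At 18 d the 95% interval stayed within a 2-fold change for 16 genes, against 44 for the averaged difference.

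Whether the effect of the line itself changed with leaf age was tested as the difference of the 26 d and 14 d contrasts. It was called for 0 of 47 genes (0%) by edgeR, with 0 at an unadjusted p below 0.05. The smallest p-values belonged to ANAC042 at 1.74 (95% interval -0.02 to 3.51), ANAC100 at 0.95 (-0.05 to 1.95) and ANAC055 at 1.87 (-0.10 to 3.84), all with an adjusted p of 0.932 by edgeR. These intervals are wide, since each gene rests on 2 samples of the line per age. The value of ANAC055 followed the 26 d sample at 1149 counts, without which it was 0.80.

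The ageing of the leaf was then compared within each genotype, a comparison added after the data had been seen. In anac019, 37 of the other 46 genes were higher at 26 d than at 14 d and 6 were lower, and in wild type of letter A 35 were higher and 6 lower. With ANAC019 included, 93.6% of the 47 genes were called in anac019 (80.9% higher and 12.8% lower) and 89.4% in wild type (76.6% higher and 12.8% lower). All 12 senescence-promoting genes rose in both genotypes on the scale of the references. With TMM 7 of the 12 rose in anac019 and 6 in wild type, and NTL9 was called lower in both. On the scale of the references, ANAC002, ANAC029, ANAC032, ANAC053 and ANAC092 lost the call in 1 or both genotypes on leaving out some single samples, with adjusted p-values up to 0.249 by edgeR. ANAC087 rose by 5.72 (SE 0.95) in anac019 and by 4.56 (SE 0.68) in wild type on the log2 scale. ANAC055 rose by 4.63 (SE 0.85) in anac019, or by 3.56 without the 26 d sample at 1149 counts, and by 2.76 (SE 0.61) in wild type. ANAC056 rose by 1.67 (SE 0.24) in anac019 and by 1.82 (SE 0.20) in wild type.

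With the arithmetic mean of the references, the same 6 genes fell in both genotypes: ANAC007, ANAC010, ANAC028, ANAC045, ANAC057 and ANAC101. ANAC007 (VND4), which acts in xylem vessel formation, was above background in every sample and changed by -0.87 (SE 0.34) in anac019 and by -0.83 (SE 0.29) in wild type. The other 5 had at least 1 genotype wholly at background at 26 d, so the size of their fall is not given. ANAC019 itself changed by 3.58 (SE 0.80) in anac019, or by 0.10 without the sample at 186 counts, and by 3.26 (SE 0.56) in wild type. The counts depend on the scale. With the geometric mean of the references, and likewise without UBQ10, 4 genes were lower in anac019 and 6 in wild type. Of ANAC007, ANAC010 and ANAC101, 1 was then called lower in anac019 and 2 were not called. With TMM, which sets the scale from the counted genes, the median of the 46 genes moved by -0.86 in anac019 and by -0.83 in wild type, leaving 18 higher and 11 lower in anac019, and 13 higher and 9 lower in wild type. The test of the difference in ageing is the one given above for change with age, which called no gene.

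**Figure D4:**
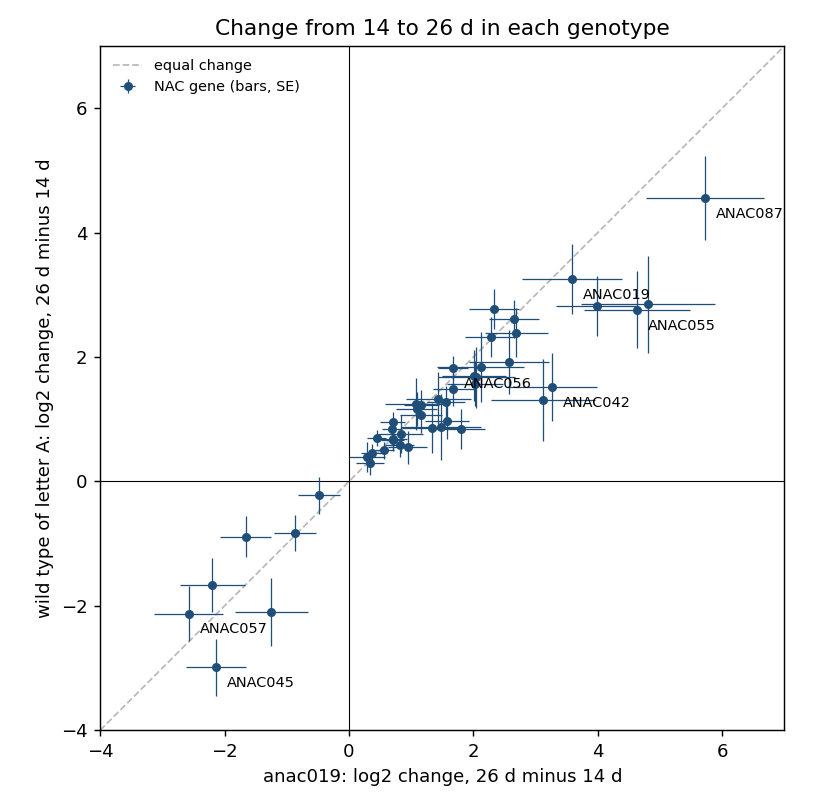
Log2 change between 26 and 14 d for each NAC gene in anac019 (horizontal) and in wild type of letter A (vertical), with standard errors. The dashed line marks equal change. ANAC087 lies at 5.72 in anac019 and 4.56 in wild type, and ANAC007 at -0.87 in anac019 and -0.83 in wild type. ANAC010, ANAC028, ANAC045, ANAC057 and ANAC101 lie lower still, with 26 d counts at background in at least 1 genotype.

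The line was last set against the lines of its relatives, without wild type. Against the anac055 line, 3 of 47 genes were called, 2.13% higher and 4.26% lower in anac019. They were ANAC019 (-4.92), ANAC055 (4.66) and ANAC056 (-0.82, SE 0.12, adjusted p = 7.11e-10 by edgeR). ANAC056 had 753 and 439.8 normalised counts at 14 d in anac019, against 1175 and 1083 in anac055, and at 26 d 2033 and 1758 in anac019, against 3261 and 3055 in anac055. Set against wild type of letter A, ANAC056 averaged -0.03 in anac019 and 0.79 in anac055 (adjusted p = 5.22e-09 by edgeR over the 2350 tests of all lines), against shared wild-type samples. ANAC056 (AT3G15510) lies close to ANAC055 (AT3G15500), with 1 gene between them in the RefSeq gene table. Whether the insertion in the anac055 line itself altered this nearby gene was not tested. One library labelled anac055 at 18 d held 163 ANAC055 counts, against 4.47 in the other; without the 18 d libraries labelled anac053 and anac055, the same 3 genes were called.

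Against the anac072 line, 3 of 47 genes were called, 4.26% higher and 2.13% lower in anac019: ANAC019 (-4.66), ANAC072 (1.97) and ANAC100 (0.62, SE 0.20, adjusted p = 0.0339 by edgeR). ANAC100 had 136 and 237 normalised counts at 26 d in anac019, against 90.7 and 77.9 in anac072. The 2 lines did not overlap at that age or at any other. Against wild type of letter A, ANAC100 averaged 0.32 in anac019 and -0.30 in anac072, and neither was called. In anac019 it differed by 0.16 from the anac055 line and by 0.14 from the other letter A lines. Of these contrasts between lines, only that with anac072 called ANAC100. That call was lost under TMM scaling (adjusted p = 0.059 by edgeR), with the references without UBQ10 (0.0552) and on leaving out 6 of the 8 anac019 samples in turn, with adjusted p-values by edgeR up to 0.258 without the second 26 d sample. ANAC019 itself had, in anac055, between 70.7 and 2189 normalised counts and averaged 0.15 above wild type of letter A, and in anac072 it averaged -0.10. ANAC055 in anac019 and ANAC019 in anac055 were thus both uncalled against letter A, which the comparisons share.

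Against the mean of the 17 other letter A lines, which leaves out wild type, ANAC041 was called higher (0.42, adjusted p = 0.00259 by edgeR), 2.13% of the 47 genes. That mean includes the anac041 line; without the line named after each gene, a comparison added after the data had been seen, ANAC041 was at 0.10 (unadjusted p = 0.377 by edgeR) and 0 of the other 46 genes were called. In the same comparison of each line with wild type of its letter, 2350 tests over 50 line comparisons, anac019 had a median size of difference of 0.08 over the 46 other genes. The 17 other letter A lines ran from 0.07 to 0.23 with a median of 0.11, and 15 of them had a larger value than anac019. The letter A lines share their wild-type samples, so these values are set side by side without a test. Of the 18 letter A lines, 13 had no other gene called.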

How the data were processed

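The authors deposited raw counts per probe, 1 table for each age, which were analysed unchanged, and a table of log2 values. In every sample those deposited log2 values matched log2 of the background-subtracted count scaled inversely to the reference mean (median relative difference no larger than 0.00479). Per the labels' protocols, total RNA was hybridised to a custom nCounter probe set. The counting software was not given in these sources. The 53 probes for genes were named by locus through the RefSeq gene table.

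Counts of all 434 samples were fitted in 1 quasi-likelihood model with edgeR 4.0.16 (R 4.3.3), with a mean for each of 216 groups of genotype, letter and age. The arithmetic mean of the 4 references set the offset; UBQ10 made up 80.6% of it (median), so the scale follows UBQ10. Of 49 NAC genes 47 were tested, those with a mean count above 12.6 (negative probes, mean plus 2 SD); ANAC076 and ANAC086 were not. Benjamini-Hochberg adjustment ran over the 47 genes, or over 188 tests age by age, with a threshold of 0.05. Intervals are 95%.

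Genes named are list members, genes past a test, and per age up to 5 each way beyond all letter A wild type. Members and lists were chosen with earlier results of these data known. Alternatives were other references, TMM, DESeq2 1.42.0, limma 3.58.1 on the authors' values, filters, wild type used, sample sets, a replicate block and leaving out samples. Calculations were tested on simulated data. No sequences were used here.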

Additional observations from a re-analysis of the deposited data

Results flagged for a closer look

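Of 31 groups of wild-type samples that could be tested for a sample far from the others, 2 had one, and chance gives about 1 in 20. ANAC019 in all wild type at 18 d had a highest sample at 607.9 normalised counts, against a median of 193, and that sample is not of letter A. ANAC052 in wild type of letter A at 14 d had a highest sample at 632, against 607 to 608 in the other 3.

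In 6 genes both anac019 samples lay above every letter A wild-type sample at one age and below every one at another. With 2 anac019 samples against 2 of wild type, or 4 at 14 d, random order alone also gives such patterns. Their expected number was not computed, so the count is not read as an effect of the line. None of these single-age differences passed the test. On the log2 scale, anac019 minus wild type, ANAC081 differed by -0.44 at 14 d, -0.42 at 22 d and 0.17 at 26 d. ANAC047 differed by -0.56 at 14 d, 0.32 at 18 d and 0.60 at 26 d. ANAC035 differed by 0.19 at 18 d, -0.59 at 22 d and -0.42 at 26 d. ANAC046 differed by -0.59 at 18 d and 0.38 at 26 d, and ANAC101 by 0.52 at 18 d and -0.87 at 26 d, where both anac019 samples were at background. ANAC079 differed by 0.26 at 14 d and -0.27 at 18 d. The change between 14 and 26 d was tested and not called for ANAC081 (0.61) or ANAC047 (1.16), with an adjusted p of 0.932 for both by edgeR. The differences between the other pairs of ages were not tested.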

How the results depend on the processing

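Over the alternatives, 425 values of the main results kept their direction and side of the threshold, 8 counts of genes moved by over 1.5 times, 4 tests of ANAC019 fell short of the threshold and 0 reversed. The 425 include fits that left out a sample of another age, which can hardly move a single-age result. Other genes called over the ages numbered 1 with all wild type (ANAC100) and 0 otherwise. Called age by age was 1 gene, ANAC100 at 26 d, with DESeq2 on letter A (adjusted p = 0.0166), with the crossed replicate block at 18 and 26 d (0.0469 by edgeR) and with it crossed at all ages (0.0465 by edgeR), and 0 otherwise. Against the other letter A lines the count was 0 without the line named after each gene and 2 with the block crossed at all ages (ANAC029 and ANAC041). Ageing in wild type gave 22 genes with TMM and 20 with DESeq2, against 41. Among the senescence-promoting and senescence-delaying genes, the direction of ageing turned in 2 with TMM and DESeq2. NTL9 was at -0.31 and -0.39 in anac019 and at -0.33 and -0.36 in wild type. ANAC083 was at -0.16 and -0.27 in anac019. Outside these lists, ANAC018 was called higher in anac019 with the references and lower with both TMM and DESeq2. All 6 membrane-tethered NACs, NTL9 included, were called higher in anac019 with the references. With TMM and with DESeq2, 2 of the 6 were called lower. With only the 2 groups compared in the fit, ANAC019 was at -3.91, -4.49 and -3.58 at 14, 18 and 26 d with an adjusted p of 0.138 by edgeR; fewer samples then estimate the spread. Leaving out single samples, ANAC019 at 26 d ran from -7.06 to -2.66.

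The replicate numbers were not taken to pair the samples, since the correlations of same-numbered deviations were mixed, at 0.68, -0.23, 0.16 and -0.27 at the successive ages, and only 2 of the 4 were above 0.1. The replicate block gave -4.83 for ANAC019 and called 0 other genes. The block crossed at 18 and 26 d took the ages with negative correlations. Its pairing was thus picked from these data, and its call of ANAC100 is not an independent test. The crossed blocks were added after seeing the data, that at all ages being tried first. So was DESeq2 on letter A alone, in place of the planned fit of all samples, whose standard errors were all near 8.17 and which called 0 genes, ANAC019 (-4.74) included. ANAC019 near background and 2 samples per age limit what single-age differences can show.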
